A study of Homo sapiens with 131 samples.

Results

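Mid-S HAP1 cells were compared at the ends of a ranking by the RNA of their mitotic genes, so that the members were chosen by measured values. For each cell the mean of log10(TPM+1) was taken over CDK1, CCNB1, CCNB2, PLK1, AURKA, TOP2A, MKI67, TPX2, BUB1 and CDC20, and the mean of the cell's library set was subtracted. The 14 cells with the highest score (the high cells) and the 14 with the lowest (the low cells) were taken from 56 ranked cells, and the 28 cells between them were described beside them. HAP1 is a near-haploid human cell line that derives from a chronic myeloid leukaemia, and the cells were untreated and sorted from mid-S phase by their DNA content. The method, scRR-seq, makes 1 DNA library and 1 RNA library from each cell, so that the replicated part of the genome and the transcriptome are known for the same cell. Labels exist for 63 mid-S cells, 7 of which were not used here, and for 5 DNA libraries of G1 cells, also not used. All cells came from 1 biological experiment, so a p-value covers only the spread between these cells.

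Mitotic genes are transcribed periodically. Their promoters are held silent in G1, and transcription through the MuvB complexes with B-MYB and FOXM1 rises during S and reaches its peak in G2 and mitosis. CDK1 with its partners cyclin B1 and cyclin B2 drives entry into mitosis, PLK1 and AURKA are mitotic kinases that act on centrosomes and spindles, and TPX2 activates AURKA on spindle microtubules. TOP2A untangles replicated chromosomes, MKI67 coats them, BUB1 works in the spindle checkpoint, and CDC20 activates the anaphase-promoting complex. A mid-S cell still has part of its genome to copy before any of these proteins is needed in full.

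The cells were split by cell number into numbers up to 65 (set 1, 29 cells) and above (set 2, 27 cells), a split that the labels do not give and that earlier results of these data had led to, and the mean of each was removed from the score. Each group held 9 cells of set 1 and 5 cells of set 2. Between 12045 and 15028 genes reached a TPM of 1 in the high cells and between 12634 and 14478 in the low cells. The score ran from 0.0829 to 0.233 in the high cells (mean 0.144 ± 0.0463, SD, n = 14) and from -0.478 to -0.0858 in the low cells (mean -0.166 ± 0.105, SD, n = 14). At the upper limit the last cell inside, cell 20, scored 0.0829 and the first outside, cell 5, scored 0.0824. At the lower limit the first cell inside, cell 35, scored -0.0858 and the nearest outside, cell 23, scored -0.0810. The ranking was therefore continuous at both limits, and only the 2 lowest cells, ranked 56 at -0.478 and 55 at -0.306, stood apart from the next at -0.183.

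**Figure D1:**
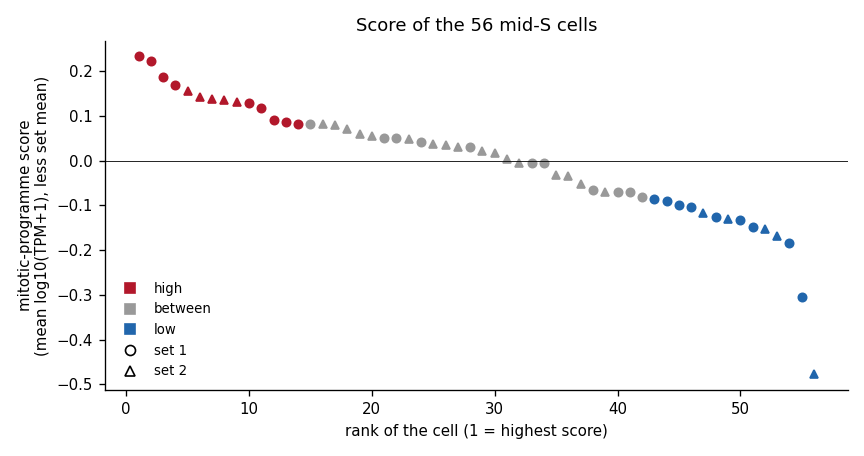
Mitotic-programme score (mean log10(TPM+1) of the 10 genes less the set mean, vertical axis) of the 56 mid-S cells in rank order (horizontal axis). Red points are the 14 high cells, blue the 14 low cells and grey the 28 between, with circles for set 1 and triangles for set 2. The score falls smoothly across both limits, and the cells ranked 55 and 56 lie below the rest.

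The genes that made the score are described without a test, because their values chose the cells. TOP2A ran from 703.8 to 1348 TPM in the high cells (median 833.5) and from 221.0 to 952.1 TPM in the low cells (median 445.7), with 12 of the 14 low cells below every high cell. TPX2 ran from 71.6 to 204.8 TPM (median 150.6) against 7.31 to 117.1 TPM (median 66.4). CDK1 had medians of 272.4 and 136.9 TPM. CCNB1 had medians of 285.1 and 123.0 TPM. These 4 genes had been named as markers of the group, and each was detected in all 28 cells, so the low cells had less of these RNAs and did not lack them. AURKA was the least even member, with 0 to 98.4 TPM in the high cells (median 64.96) and 0 to 115.4 TPM in the low cells (median 23.1). Across the 56 cells, with set means removed, each gene was set against the mean of the other 9. TPX2 followed the others most closely (Pearson r = 0.555), then TOP2A (r = 0.528) and BUB1 (r = 0.477), and AURKA least (r = 0.129). The unspliced counts of the same genes were sparse. The 8 score genes of the unspliced table summed to a median of 120.03 counts in the high cells (6.4 to 306.8) and 125.2 in the low cells (5.4 to 502.1).

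The score genes share sequence features that the ranking did not use. The CHR element (TTTGAA), bound by MuvB complexes, and the CCAAT box (CCAAT), bound by NF-Y, were searched on both strands of the RefSeq promoters of GRCh38.p14, from 250 bases before to 50 bases after each start. Of the 10 score genes 8 have an entry. All 8 held CCAAT and 6 held TTTGAA, against 35.7% and 15.4% of 27305 promoters. The sequences below give 60 bases around the TTTGAA nearest to the start of each of the 6 genes, with both motifs in capitals on either strand (TTCAAA and ATTGG are the reverse complements). A match describes letters and is not a measured site.
CDK1, chr10:60778143-60778202, plus strand: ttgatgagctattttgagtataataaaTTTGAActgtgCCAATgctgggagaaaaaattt
CCNB2, chr15:59105090-59105149, plus strand: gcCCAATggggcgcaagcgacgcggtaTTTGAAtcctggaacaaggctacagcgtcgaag
PLK1, chr16:23678833-23678892, plus strand: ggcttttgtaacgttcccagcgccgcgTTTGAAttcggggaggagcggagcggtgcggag
TOP2A, chr17:40418015-40418074, minus strand: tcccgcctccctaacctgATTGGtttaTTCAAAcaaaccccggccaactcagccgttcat
MKI67, chr10:128126420-128126479, minus strand: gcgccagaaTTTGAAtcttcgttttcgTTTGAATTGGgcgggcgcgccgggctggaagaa
CDC20, chr1:43358889-43358948, plus strand: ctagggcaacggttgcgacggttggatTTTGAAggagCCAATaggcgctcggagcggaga
In CCNB2, PLK1 and MKI67 the element began 29 bases before the annotated start, in CDC20 65 bases and in TOP2A and CDK1 151 and 161 bases before it. In MKI67 the second TTTGAA overlaps ATTGG.

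The DNA libraries gave a measure that the ranking had not used. High cells had replicated more of their genome than low cells. The replication score, the share of called 40-kb bins in the 2-copy state, ran from 42.0% to 67.2% in the high cells (median 60.6%) and from 40.5% to 61.5% in the low cells (median 51.1%). The groups overlapped over most of their range, and 1 high cell, cell 53, lay at 42.0%. The means were 58.6% ± 7.92 and 51.2% ± 6.63 (SD, n = 14 each), a difference of 7.42 percentage points (two-sided permutation test within sets, p = 0.00952). The cells between had a mean of 52.1% ± 7.58 (SD, n = 28), nearer to that of the low cells. Within set 1 the difference was 6.25 points (n = 9 each, exact permutation p = 0.105) and within set 2 it was 9.52 points (n = 5 each, exact permutation p = 0.0159). The difference between these 2 values, 3.27 points, had a permutation p of 0.495. Leaving out the cells ranked 55 and 56 gave 7.37 points (permutation p = 0.0121). Over all 56 cells, with set means removed, the mitotic score and the replication score had a Pearson r of 0.434 and a Spearman rho of 0.456. The points share 1 experiment and this is given as a description.

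**Figure D2:**
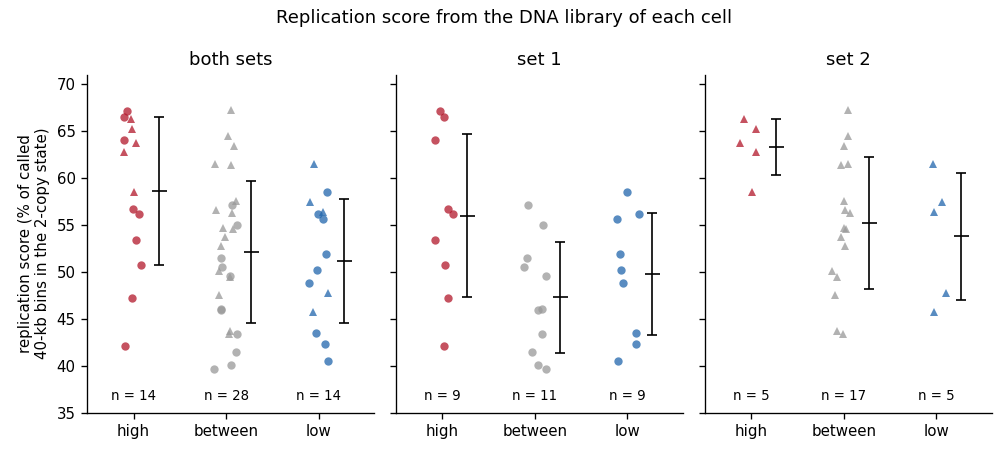
Replication score (percent of called 40-kb bins in the 2-copy state, vertical axis from 35) of each cell in the high, between and low groups, for both sets together and for each set. Circles are set 1, triangles set 2, and bars are the mean ± SD. The high cells average 58.6% and the low cells 51.2%, with overlapping ranges.

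In percentage points the groups lay farthest apart in bins of mid timing. Timing classes were made from the 28 cells between the groups, so that the compared cells did not define them: early bins were 2-copy in over 2 of 3 of these cells, late bins in under 1 of 3, and mid bins lay between. Of the 3 classes and 20 chromosomes tested, 15 (65.2%) were more replicated in the high cells at an adjusted p under 0.05. In 10394 mid bins the replicated share ran from 32.3% to 81.5% in the high cells (median 68.5%) and from 27.4% to 70.3% in the low cells (median 47.3%). Their means of 63.6% ± 15.6 and 48.0% ± 13.3 differed by 15.6 points (SD, n = 14 each, permutation test, Benjamini-Hochberg adjusted p = 0.0205). In 21832 late bins the means were 17.9% ± 6.93 and 11.3% ± 5.19 (adjusted p = 0.0205), a smaller difference in points on a smaller spread. Early and late bins lie toward 100% and 0% by definition, which limits their differences in points. In 24655 early bins they were 92.7% ± 6.56 and 88.0% ± 5.92 (adjusted p = 0.0661). The mean of the high cells was the higher on each of the 20 chromosomes, and 13 passed the adjusted threshold. Differences ran from 2.41 points on chromosome 19 to 9.84 points on chromosome 5, where the means were 53.7% ± 9.40 and 43.9% ± 6.85 (adjusted p = 0.0205).

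**Figure D3:**
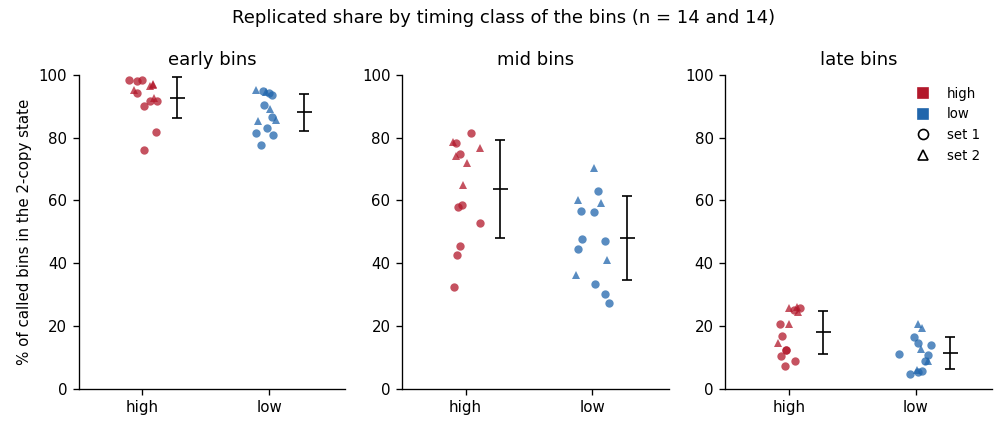
Share of called bins in the 2-copy state (vertical axis, percent) of the 14 high and 14 low cells in early, mid and late bins. Circles are set 1, triangles set 2, and bars are the mean ± SD. In percentage points the groups lie farthest apart in the mid bins, at means of 63.6% and 48.0%.

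The copy number of the score genes themselves was read from the DNA of the same cells. CDK1, TOP2A and TPX2 were 2-copy in all 14 high and all 14 low cells, and CCNB1 in 14 of 14 high and 11 of 11 low cells with a call, while 3 low cells had none. MKI67, 2-copy in 12 of 27 cells ranked between, was 2-copy in 7 of 14 high and 1 of 14 low cells, whereas PLK1 was 2-copy in 1 of 13 high and 5 of 14 low cells. AURKA was 2-copy in 7 and 5 of 14 cells and BUB1 in 9 of 12 and 9 of 14. Over the 8 score genes with a state, 73.7% ± 13.9 of calls were 2-copy in the high cells and 67.0% ± 9.44 in the low cells (SD, n = 14 each, permutation p = 0.135). CCNB2 and CDC20 lie on chromosomes that the state tables leave out.

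Spliced RNA of all other genes was then compared between the same cells. These genes come from the libraries that gave the score, so they are not an independent measure of it. Differences are of log2(TPM+1), high minus low, with the set as a term, and 17122 genes passed a filter that asked for a TPM of 1 or more in 20% of the 56 cells. In limma, 2 genes rose (0.0117% of those tested) and none fell at an adjusted p under 0.05. At an unadjusted p under 0.05, 968 genes (5.65%) lay higher in the high cells and 674 (3.94%) lower. Median-of-ratios scaling turned this split, with 706 genes (4.12%) higher and 838 (4.89%) lower, and moved the median of all genes from 0.03 to -0.03. PKM, the pyruvate kinase of glycolysis (chr15:72199029-72231822, hg38), ran from 899.8 to 1374 TPM in the high cells (median 1168) and from 341.8 to 1251 TPM in the low cells (median 681.5). Its difference was 0.71 ± 0.127 (SE, adjusted p = 0.0212), 1.64-fold on the log2(TPM+1) scale. EIF4A1, the RNA helicase of translation initiation (chr17:7572824-7579006), ran from 1928 to 3585 TPM (median 2603) against 1143 to 2519 TPM (median 1662). Its difference was 0.62 ± 0.108 (SE, adjusted p = 0.0212). EIF4A1 carries snoRNAs in its introns and overlaps a readthrough gene, and the sources used here do not say how reads were shared among them. Both genes were higher in each set, PKM by 0.90 in set 1 and 0.38 in set 2 and EIF4A1 by 0.80 and 0.29, and in set 2 the unadjusted limma p was 0.0625 and 0.0928. With the mitochondrial share and the unspliced total as terms PKM differed by 0.41 and EIF4A1 by 0.37, and both calls ended. Both calls ended under median-of-ratios scaling and without cell 18, 20, 21, 24 or 54, and 11 genes were called higher without cell 84. With the replication score as a term, PKM differed by 0.81 (limma adjusted p = 0.0501) and EIF4A1 by 0.63 (limma adjusted p = 0.0590).

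**Figure D4:**
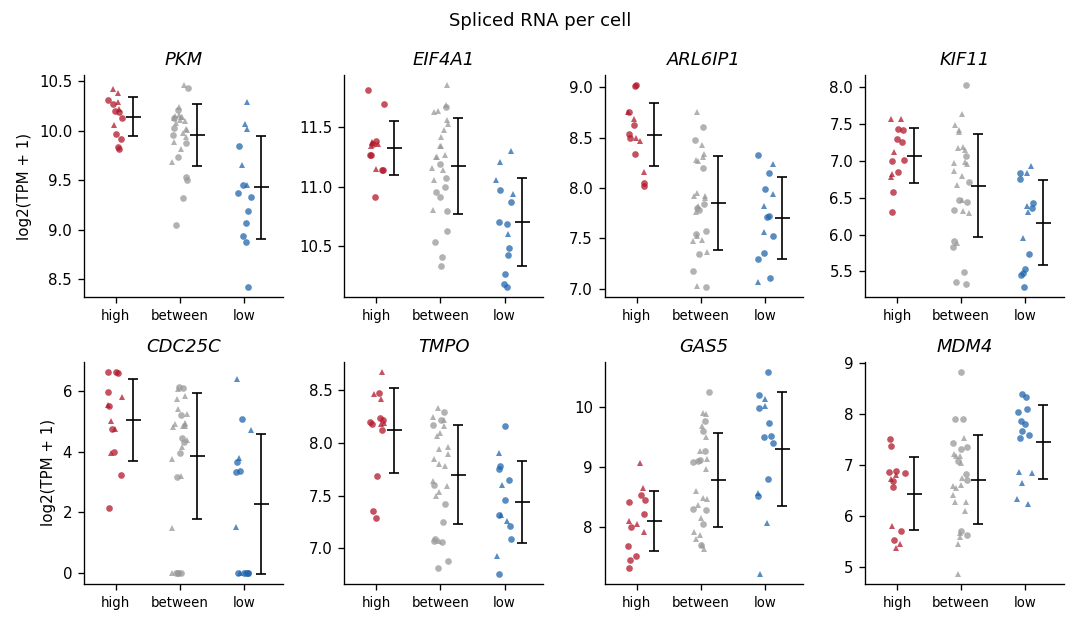
Spliced RNA, log2(TPM + 1) on the vertical axis, of 8 genes in each cell of the high, between and low groups. Circles are set 1, triangles set 2, and bars are the mean ± SD. PKM and EIF4A1 passed the adjusted threshold, and the other 6 genes did not.

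Genes of mitosis outside the score lay higher more often than lower, although none passed the adjusted threshold. Over 7 lists (kinases and checkpoint, kinesins, spindle, kinetochore, anaphase-promoting complex, condensin, and mitotic entry) of 11 to 22 genes each, every gene passed the expression filter. At an unadjusted p under 0.05, 25 genes lay higher (22.3%, against 5.65% of all genes) and 2 lower, and the median difference was 0.34, against 0.03 over all genes. Nearly all of them are detected in 80% of cells, and over all genes detected that widely 8.27% lay higher and the median was 0.13. Of 10 household reference genes 4 lay higher (40%), with a median of 0.35, a difference as large as that of the mitotic lists. Genes of these lists are regulated with the score genes and were picked with earlier results known, so their direction is not independent evidence. The median was 0.42 in set 1 and 0.29 in set 2, and 0.25 under median-of-ratios scaling. It was 0.34 with the replication score as a term and 0.34 with the mitochondrial share and the unspliced total as terms.

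Among motors, 5 of 13 kinesins lay higher (38.5%, against 8.27% of genes detected in 80% of cells) and none lower (median 0.55). KIF11, the motor that pushes spindle poles apart, ran from 77.9 to 189.7 TPM in the high cells (median 133.5) and from 38.02 to 121.1 TPM in the low cells (median 79.8). The ranges overlapped in the middle, and the difference was 0.91 ± 0.218 (SE, limma adjusted p = 0.153). KIF20A, a kinesin of cytokinesis, had medians of 48.1 and 20.3 TPM (difference 1.45 ± 0.533, SE, limma adjusted p = 0.391). Of 20 spindle and cytokinesis genes 7 lay higher (35%) and none lower (median 0.47). ARL6IP1 is counted among these 7, although it is a protein of the endoplasmic reticulum membrane. It ran from 258.5 to 519.4 TPM (median 365.4) against 133.4 to 320.8 TPM (median 209.7). Its difference of 0.83 ± 0.162 (SE) was 0.85 in set 1 and 0.79 in set 2 and missed the threshold (limma adjusted p = 0.0615). CKAP2L, a spindle protein, had medians of 24.2 and 7.80 TPM, and RACGAP1, part of the central spindle, 97.0 and 55.2 TPM.

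Of 18 genes of mitotic entry 4 lay higher (22.2%, against 8.27% of genes detected in 80% of cells) and none lower. CDC25C, the phosphatase that activates CDK1, ran from 3.42 to 98.7 TPM in the high cells (median 37.9) and from 0 to 82.7 TPM in the low cells (median 5.47). Its difference was 2.77 ± 0.686 (SE, limma adjusted p = 0.174). CCNA2, cyclin A2, which acts from S to mitosis, had medians of 130.0 and 62.0 TPM (difference 0.89 ± 0.264, SE, limma adjusted p = 0.292). In the condensin and chromosome structure list 3 of 11 lay higher (27.3%) and 1 lower (9.09%). The lowest p was that of TMPO, a lamina-associated protein, with medians of 291.9 and 166.7 TPM. SMC2, a condensin subunit, had medians of 90.97 and 55.2 TPM, but differed by 1.58 in set 1 and by -0.31 in set 2. Of 16 kinases and checkpoint genes 2 lay higher (12.5%, near the 8.27%) and none lower (median 0.48). These were CDCA8, a chromosomal passenger (69.2 and 43.7 TPM), and MAD2L1, of the spindle checkpoint (172.8 and 123.0 TPM). Of 22 kinetochore genes 3 lay higher (13.6%, also near it) and none lower (median 0.28). Among them were CENPA, the centromeric histone (69.02 and 24.2 TPM), and CENPF (113.4 and 76.8 TPM). The anaphase-promoting complex list was even, with 1 higher, PTTG1 (securin, 166.0 and 114.4 TPM), 1 lower, ANAPC7 (125.8 and 177.5 TPM), and a median near 0 (0.00335).

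**Figure D5:**
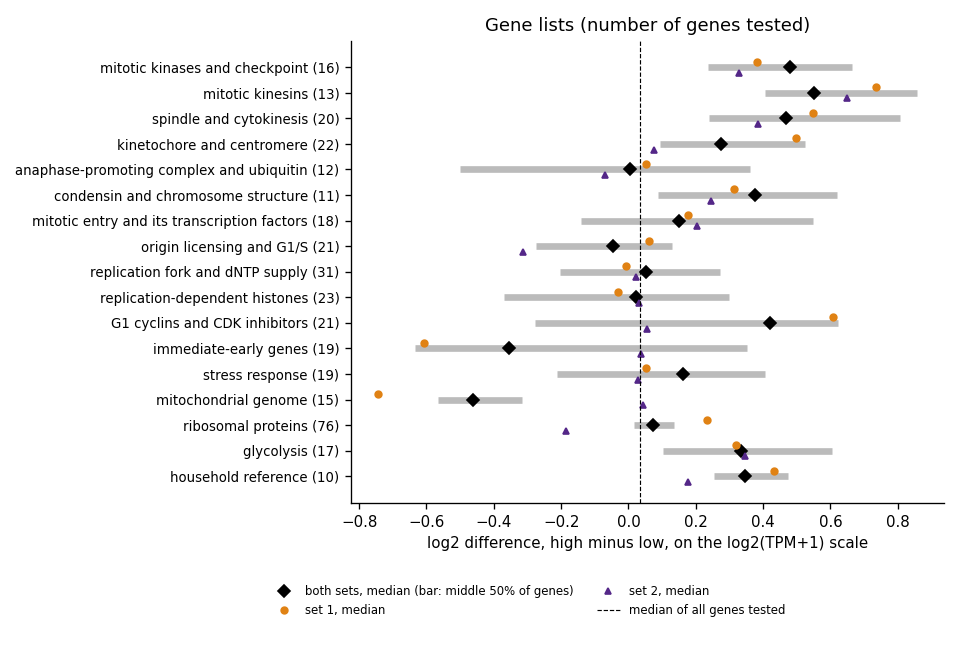
Median log2 difference, high minus low, of each gene list (horizontal axis, log2(TPM+1) scale), with the number of genes tested in brackets. Diamonds are both sets with grey bars for the middle 50% of genes, orange circles set 1, purple triangles set 2, and the dashed line the median of all genes. Medians for kinesins, kinases and spindle genes lie to the right in both sets, and that of the mitochondrial genome lies to the left in set 1 alone.

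The promoters of the 4 leading genes of these lists are shown whole, because the motifs of the score genes were also counted over these lists. Of all genes of the 7 lists, whichever way they lay, 94 have an entry, of which 54.3% held TTTGAA, 62.8% held CCAAT and 35.1% held both, against 15.4%, 35.7% and 6.08% of all promoters. Each run has 300 bases of GRCh38.p14, 5′ to 3′ on the strand of the gene, with motifs of either strand in capitals.
ARL6IP1, chr16:18801321-18801620, minus strand: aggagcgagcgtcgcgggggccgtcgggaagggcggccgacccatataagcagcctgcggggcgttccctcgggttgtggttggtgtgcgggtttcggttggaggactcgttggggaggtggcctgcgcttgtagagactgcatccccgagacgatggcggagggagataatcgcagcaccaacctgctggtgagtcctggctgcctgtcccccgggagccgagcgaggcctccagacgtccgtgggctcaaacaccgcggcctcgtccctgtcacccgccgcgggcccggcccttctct
KIF11, chr10:92592880-92593179, plus strand: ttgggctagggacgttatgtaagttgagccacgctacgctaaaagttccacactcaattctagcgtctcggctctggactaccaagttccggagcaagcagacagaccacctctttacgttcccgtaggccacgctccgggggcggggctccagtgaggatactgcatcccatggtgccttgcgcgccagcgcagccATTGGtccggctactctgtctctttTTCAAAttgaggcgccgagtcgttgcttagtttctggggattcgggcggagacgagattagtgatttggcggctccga
CDC25C, chr5:138338306-138338605, minus strand: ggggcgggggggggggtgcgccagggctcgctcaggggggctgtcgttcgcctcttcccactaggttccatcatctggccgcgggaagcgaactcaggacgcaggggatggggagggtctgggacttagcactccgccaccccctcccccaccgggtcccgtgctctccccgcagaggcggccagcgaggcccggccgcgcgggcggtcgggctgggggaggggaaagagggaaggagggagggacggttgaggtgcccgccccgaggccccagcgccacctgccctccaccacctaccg
TMPO, chr12:98515323-98515622, plus strand: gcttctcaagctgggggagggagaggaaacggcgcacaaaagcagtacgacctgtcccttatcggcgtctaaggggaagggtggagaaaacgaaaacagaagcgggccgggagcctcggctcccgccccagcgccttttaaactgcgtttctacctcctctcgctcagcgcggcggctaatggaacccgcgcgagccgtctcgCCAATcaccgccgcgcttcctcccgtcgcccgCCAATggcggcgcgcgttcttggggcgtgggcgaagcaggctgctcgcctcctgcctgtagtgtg
KIF11 held both motifs, the CHR element 28 bases and the CCAAT box 53 bases before its start. TMPO held CCAAT at 47 and 15 bases before its start and no TTTGAA, and neither was in the windows of ARL6IP1 and CDC25C. Only a single start was searched for each gene. The window of CDC25C lies at the outer end of the annotated span of the gene. A motif at another start of a gene would be missed, so a window without a match does not show that the gene lacks it.

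The lists of S phase genes had medians near 0 over both sets. Of 31 genes of the replication fork and nucleotide supply 3 lay higher (9.68%, against 5.65% of all genes) and none lower (3.94% of all genes), and the median was 0.05. All 3 supply nucleotides. RRM1, the large subunit of ribonucleotide reductase, had medians of 324.3 TPM in the high and 202.2 TPM in the low cells (difference 0.72 ± 0.218, SE, limma adjusted p = 0.295). RRM2, its small subunit, had 471.1 and 335.4 TPM, and TYMS, thymidylate synthase, 569.2 and 388.3 TPM. Of 21 genes of origin licensing and G1/S 1 lay higher, CCNE1 (cyclin E1, 23.1 and 9.22 TPM), and 1 lower, MCM3 (a helicase subunit, 178.0 and 265.6 TPM), 4.76% each way, with a median of -0.05. The median of this list was 0.06 in set 1 and -0.31 in set 2, where 3 of 21 genes had a positive difference, and it was 0.20 with the replication score as a term. MCM3 differed by -0.49, and by -0.0701 with the replication score as a term (unadjusted limma p = 0.775). Of 48 replication-dependent histone genes 23 passed the expression filter, with 1 lower, H2AC11 (0 and 2.69 TPM), and a median of 0.02. Their share of TPM had medians of 0.0134% and 0.0118%. Seurat's S score, whose list holds none of the score genes, had medians of 0.031 in the high and 0.0009 in the low cells. Seurat called 9 high cells G2/M, 5 S and 0 G1, against 1, 7 and 6 low cells. Its G2/M list holds 8 of the 10 score genes, so these calls follow from the ranking.

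Enzymes of glycolysis leaned higher in the high cells. Of 17 genes 8 lay higher (47.1%) and none lower, 1 of which, PKM, passed the adjusted threshold, and the median was 0.34. PGK1, phosphoglycerate kinase, ran from 806.0 to 1764 TPM in the high cells (median 1248) and from 502.9 to 1302 TPM in the low cells (median 720.7). LDHB, a lactate dehydrogenase subunit, ran from 1153 to 2313 TPM (median 1566) against 513.2 to 1800 TPM (median 1018). ALDOA, aldolase, had medians of 601.6 and 393.8 TPM. The median of the list was 0.32 in set 1 and 0.35 in set 2. Widely detected genes leaned upwards. Among the 8853 genes at a TPM of at least 1 in 80% of cells 732 (8.27%) lay higher and 293 (3.31%) lower, with a median of 0.13. The 4 household reference genes that lay higher include PPIA, cyclophilin A (3131 and 2484 TPM). The median over 76 ribosomal protein genes was 0.07, with 0.23 in set 1 and -0.19 in set 2.

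Further genes with the lowest p-values in the upward direction came from unrelated roles, and none passed the threshold. XRCC5 (Ku80, of DNA end joining) had medians of 509.0 and 324.6 TPM, CALM2 (calmodulin) 840.1 and 528.3 TPM, PSMC3 (a proteasome ATPase) 132.3 and 66.3 TPM, ATP5F1A (an ATP synthase subunit) 930.8 and 667.2 TPM, and TUBA1B (α-tubulin) 2261 and 1603 TPM. ATP6AP1, an accessory subunit of the vacuolar ATPase, had 194.3 and 78.2 TPM, and STAM, an endosomal sorting adaptor, 34.3 and 1.23 TPM. STAM differed by 4.33 in set 1 and 0.55 in set 2. In the stress list 3 of 19 genes lay higher (15.8%, against 5.65% of all genes and 8.27% of those detected in 80% of cells), with the chaperones HSP90AA1 (1180 and 947.8 TPM) and HSPA8 (1254 and 993.4 TPM) leading. In the list of G1 cyclins and CDK inhibitors 3 of 21 lay higher (14.3%), led by CDKN2C (p18, 44.6 and 14.7 TPM), which differed by 1.92 in set 1 and -0.35 in set 2, and CDKN2A (161.0 and 135.7 TPM).

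Genes with the lowest p-values in the downward direction were mostly non-coding or of low abundance, and none passed the adjusted threshold. GAS5, a non-coding host of snoRNAs, ran from 158.2 to 539.2 TPM in the high cells (median 268.9) and from 148.3 to 1545 TPM in the low cells (median 731.4). Its difference was -1.21 ± 0.263 (SE, limma adjusted p = 0.131), with -1.63 in set 1 and -0.44 in set 2. MDM4, an inhibitor of p53, had medians of 103.3 and 197.3 TPM and CLK2, a kinase of splicing factors, 47.9 and 160.2 TPM. POLR2J3 (3.88 and 17.2 TPM), ANKRD36 (16.2 and 52.6 TPM), AP000347.2 (4.01 and 32.04 TPM) and GUSBP3 (8.65 and 30.6 TPM) belong to families with near-identical copies or pseudogenes, or have no protein name, and their values are uncertain. LRRC34 had 20.3 and 58.4 TPM. VCPKMT, MNX1-AS1 and RP11-552F3.10 had medians of 0 in the high and 15.7, 5.22 and 2.88 TPM in the low cells. TSACC was listed at 0 in all 14 high cells and at up to 38.3 TPM in the low cells. Of 19 immediate-early genes EGR1 lay higher (7.40 and 1.48 TPM) and KLF4 (11.7 and 36.2 TPM) and ATF3 (14.3 and 24.01 TPM) lower. These counts are 5.26% and 10.5% of the list, against 5.65% and 3.94% of all genes, and the list's median was -0.61 in set 1 and 0.04 in set 2. None of these 3 passed the adjusted threshold, the lowest limma adjusted p among them being 0.301.

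RNA of the mitochondrial genome was lower in the high cells of set 1. Of 15 genes 12 lay lower (80%, against 3.94% of all genes) and none higher, with a median of -0.46, -0.74 in set 1 and 0.04 in set 2. Within set 1 alone 14 of the 15 lay lower, and within set 2 alone 0 did. MT-CO1, a subunit of cytochrome oxidase, ran from 2956 to 19601 TPM in the high cells (median 8066) and from 3179 to 28826 TPM in the low cells (median 14031). In set 1 mitochondrial RNA took 6.10% to 11.2% of TPM in the high cells and 9.30% to 18.3% in the low cells (means 7.88% and 13.7%, n = 9 each, exact permutation p = 0.000452). In set 2 it took 2.91% to 4.43% and 2.94% to 3.64% (means 3.56% and 3.26%, n = 5 each, exact permutation p = 0.389). TPM sums to a common total in each cell, so this share is not independent of the score that ranked the cells. Unspliced totals in set 1 were also lower in the high cells, with means of 684594 and 973292 counts (n = 9 each, exact permutation p = 0.00292), and in set 2 they were 610793 and 597534 counts (n = 5 each, exact permutation p = 0.786). In set 1 both measures fell as the mitotic score rose (Pearson r = -0.664 and -0.605, 29 cells). In set 2 r was 0.284 and -0.00408 (27 cells). How either measure follows the gene groups above from cell to cell was not tested. With genes detected and the mitochondrial share as terms 0 genes passed the adjusted threshold, and 399 lay higher and 348 lower at an unadjusted p under 0.05. With the mitochondrial genes left out of the TPM total 2 genes were called, as before. At an unadjusted p under 0.05 that fit had 819 genes higher and 751 lower, a more even split than the 968 and 674 of the main fit. In the fit with the mitochondrial share and the unspliced total as terms, 0 genes passed the adjusted threshold. At an unadjusted p under 0.05, 521 lay higher and 292 lower. No mitochondrial gene was among them, but the share is the sum of such genes, so this cannot show whether they differ. In that fit 6 of 17 glycolysis genes and 16 genes of the 7 mitotic lists lay higher, against 521 of all 17122 genes tested. Of the 10 household reference genes 1 lay higher in it. The share among widely detected genes is not given for that fit, so whether either group exceeds that background was not tested. The number of genes detected did not separate the groups, with means of 13375 and 13452 (permutation test, adjusted p = 0.868).

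Unspliced RNA, the gene-body reads outside exons, gave few and uneven calls. edgeR called 3 of 9079 genes higher (0.033%) and 6 lower (0.0661%) at an adjusted p under 0.05, and 239 (2.63%) and 383 (4.22%) at an unadjusted p under 0.05. RIMS2, a synaptic scaffold gene, was called lower, with medians of 25.5 counts in the high and 60.9 in the low cells and a highest low cell at 3757 counts (edgeR adjusted p = 0.0464). WASHC3, of an endosomal actin complex, was at a median of 0 in both groups, with a count above 0 in 2 high and 6 low cells. The genes called higher were AC091493.2, TMEM65, a mitochondrial membrane protein gene, and ZNF790-AS1, with medians of 7.75, 0.325 and 2.2 counts in the high cells and 0, 0.200 and 0 in the low cells. Further genes called lower were TIPARP (medians 0 and 0.625 counts), RASGEF1B (5.13 and 42.6) and SIVA1 (0 and 3.04). Single cells set several of these values, such as 1 high cell with 715 counts of TMEM65. limma on log2 CPM called 3 other genes higher (0.033%) and none lower, and shared 0 of the 9. The 3 were RP11-1035H13.3, RP11-761B3.1 and RP11-386G11.10. Their annotated spans overlap those of ARL6IP1, CALM2 and TUBA1B, in that order, which were named above for spliced RNA. Whether exon reads of these genes make up the counts was not tested. DESeq2 called 154 genes (1.7%), all 9 among them, and 43 of the 154 (0.474%) were higher.

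Over all 56 cells, the genes most like the score were sought by Pearson r with set means removed. These were GASK1B (r = 0.596), HDAC9 (0.589), SLC12A2 (0.567), PKM (0.556) and HNRNPF (0.546). HDAC9, a class IIa histone deacetylase, ran from 32.8 to 363.6 TPM in the high cells (median 129.1) and from 0.710 to 162.0 TPM in the low cells (median 53.8). GASK1B, a Golgi-associated kinase-like protein, had medians of 88.4 and 34.03 TPM, and SLC12A2, the Na-K-Cl cotransporter, 35.7 and 13.8 TPM. Without the cells ranked 55 and 56, r was 0.393 for GASK1B, 0.475 for HDAC9, 0.417 for SLC12A2, 0.503 for HNRNPF and 0.611 for PKM. All 5 come from the libraries that gave the score.

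Markers of fibroblasts and blood cells were read in the same cells. Of 10 fibroblast markers COL3A1, LUM and PDGFRB were at 0 in all 28 cells, 4 passed the expression filter, and the list summed to 2.31 to 119.0 TPM in the high and 0.460 to 109.2 TPM in the low cells, with FBN1, fibrillin, at medians of 32.8 and 2.99 TPM. FBN1 was above 0 in 13 high and 9 low cells, and its difference was 1.87 ± 0.790 (SE, unadjusted limma p = 0.0235, adjusted p = 0.467). COL1A1, a collagen, lay the other way, at medians of 1.875 TPM in the high and 8.695 TPM in the low cells. The difference of COL1A1 was -0.89 ± 0.692 (SE, unadjusted limma p = 0.207), with -2.09 in set 1 and 1.27 in set 2. Of 10 blood cell markers SPI1, MPO, ITGAM and HBG2 were at 0 in all 28 cells, and the list summed to 0 to 7.95 TPM and 0 to 63.3 TPM. The highest single value of a blood marker in these cells was 58.65 TPM.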

How the data were processed

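The cells, lists and promoters were chosen with earlier results of these data known. DNA: per the authors' methods, reads were aligned to hg38 with BWA (0.7.17-r1188, per the submitters' processing notes) and each 40-kb bin was called 1-copy or 2-copy; chromosomes 1, 15 and X were left out, and up to 3.34% of bins per cell had no call. RNA: the authors deposited TPM of exon reads (Hisat2 and featureCounts, GENCODE annotation), which sum to a common total per cell and keep no depth. The authors deposited unspliced values (Hisat2 and featureCounts, gene-body minus exon reads, negative values set to 0), taken here as estimated counts although titled TPM. Whether the unspliced values are counts was not tested, and the edgeR calls and unspliced totals rest on that reading. The authors state that libraries were reduced to a common read number. The sources used here do not state whether counting used strand.

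Spliced RNA was tested with limma 3.58.1 (trend, log2(TPM+1), set as a term), and unspliced counts, rounded, with edgeR 4.0.16 quasi-likelihood (TMM, at least 5 counts in 20% of cells), both with Benjamini-Hochberg adjustment and the score genes left out. A pseudocount of 1 understates differences of low genes. Single measures were compared by two-sided permutation within sets (100000 resamples) and by exact enumeration within a set. Named genes are the 12 with the lowest p in each direction, the 2 with the lowest p of each list, the 3 lowest in each direction for unspliced RNA, the 4 leading mitotic-list genes with a promoter, and the 5 genes most correlated with the score. In the list sentences "higher" and "lower" mean an unadjusted p under 0.05. Alternatives included DESeq2 1.42.0, other filters, scalings and group sizes, and each cell left out. Phases came from Seurat 5.3.0. The tests were tried on simulated data. Some genes that the rule names are not reported here.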

Additional observations from a re-analysis of the deposited data

Results flagged for a closer look

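The difference between high and low cells was not the same in the 2 library sets for 5 library measures. The test permuted, within sets, what remained of each value after its group mean was removed (20000 resamples, adjusted over 6 measures). For the mitochondrial share of TPM, the difference of set 2 minus that of set 1 was 6.11 percentage points (-5.80 in set 1, 0.304 in set 2, adjusted p = 0.00015). For the unspliced total it was 301957 counts (-288698 and 13260, adjusted p = 0.0014). The share of lncRNA genes gave 1.54 points (-1.61 and -0.0626, adjusted p = 0.003), that of ribosomal protein genes -4.80 points (2.02 and -2.78, adjusted p = 0.00015) and that of the 50 most abundant genes 2.56 points (-4.03 and -1.47, adjusted p = 0.0323). For the replication score it was 3.27 points, with an adjusted p of 0.495. The shares of TPM come from the RNA libraries that gave the mitotic score and are not independent of it. Among spliced genes, limma gave 0 of 17122 with an adjusted p under 0.05 for the difference between sets and 827 with an unadjusted p under 0.05.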

How the results depend on the processing

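The higher replication score of the high cells kept its direction in all alternatives, with 6.60 to 8.69 points when each cell was left out 10.2 points with 10 against 10 cells and 12.6 points, the most, for the score without the set mean subtracted. It missed the threshold within set 1 (6.25 points, n = 9 each, exact permutation p = 0.105). The counts of spliced genes depended on the settings. Beside 2 higher and 0 lower, none was called without an expression filter, under median-of-ratios scaling, without a set term, in set 2, with the replication score, with genes detected and mitochondrial share, or with mitochondrial share and unspliced total as terms, by the Wilcoxon test, or with 10 against 10 cells. Set 1 gave 6 genes, 4 higher and 2 lower, the filter at 80% of cells 4 higher, 18 against 18 cells 5 higher, unit-SD scaling of the score genes 1 higher, and the slope over 56 cells 12 genes, 10 higher and 2 lower. The uncentred score, which leaves the set difference in the ranking, gave 225 genes, 141 higher and 84 lower. Leaving out each cell gave 0 to 12 genes, 11 higher and 1 lower at most, the most without cell 84, and 1 higher without cell 64 or the cell ranked 47. For unspliced genes, 9 in all, DESeq2 gave 154, 43 of them higher, and limma 3, set 1 gave 2, all lower, no count filter and set 2 gave 0, and leaving out each cell gave 0 to 15, over 1.5 times from 9 in 22 of 28 runs. Among genes named by the rule with an unadjusted p under 0.05, differences changed sign in set 2 for CDKN2C (-0.35), SMC2 (-0.31) and RPS24 (-0.0785, ribosomal protein). RPS24 also changed sign with mitochondrial share and either genes detected or unspliced total as terms (-0.0199 and -0.0201). MT-CO1 changed sign in these 2 fits (0.10 and 0.0145), but it is itself part of the mitochondrial share. The ribosomal protein share of TPM changed sign with 10 against 10 cells (-0.476 points). The causes were not tested. The mitochondrial and unspliced terms and the run without the cells ranked 55 and 56, which gave 2 higher and 0 lower, were chosen after seeing the data. No paired analysis was possible because high and low cells share no cell numbers, and a number shared by a DNA and an RNA library marks 1 cell. TPM keeps no depth, so the precision of single values is not known.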

Other observations

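Some gene groups were looked at after their values had been seen, and are given as values without a test. The hnRNP proteins, which package pre-mRNA, had a median difference of 0.34 over 23 genes (0.51 in set 1, 0.10 in set 2), with HNRNPC at medians of 845.3 TPM in the high and 603.4 TPM in the low cells and HNRNPK at 348.4 and 234.5 TPM. Tubulins had a median of 0.36 over 20 genes, with 0.43 in set 1 and 0.23 in set 2. TUBB had 1295 and 873.2 TPM and TUBG1, γ-tubulin of the centrosome, 95.5 and 71.1 TPM. The 9 chaperonin subunits, which fold tubulin and actin, had a median of 0.34 (0.44 and 0.18), with CCT8 at 359.5 and 205.8 TPM. Proteasome subunits had a median of 0.24 over 47 genes (0.28 and 0.22). Most genes of these groups are among the 8853 detected in 80% of cells, over which the median was 0.13.

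The snoRNA host genes lay on the other side, with a median of -0.43 over 27 genes (-0.74 in set 1, -0.18 in set 2). Beside GAS5, SNHG12 had medians of 52.6 TPM in the high and 163.8 TPM in the low cells, SNHG1 728.0 and 1051 TPM and SNHG5 110.8 and 174.3 TPM. SNHG3, at 108.8 and 185.3 TPM, differed by -0.999 in set 1 and 0.21 in set 2.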
